A study of Homo sapiens with 30 samples.

Results

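The genes described here were expressed in parental G401 cells and silent in their DTMYC derivative. A gene was a member when its mean over the 6 parental RNA-seq libraries was at least 5 CPM (counts scaled to the library's total count) and its mean over the 6 DTMYC libraries was under 0.2 CPM. Of 18132 entries in the protein-coding table, 89 met both thresholds. Genes on chromosome 15 and symbols beginning with COL, LAM, ITG, HOX or HIST were set aside, which removed 7 and left 82 members, 0.875% of the 9368 entries that passed the parental threshold under the same exclusions. The reverse rule, silent in parental cells and expressed in DTMYC cells, found 4 genes.

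G401 is an established line from a malignant rhabdoid tumour of the kidney. In DTMYC cells a lentivirus supplied MYC with a dTAG module at its N terminus, made of an HA epitope and a mutant FKBP12 domain, and the endogenous MYC gene had been removed with CRISPR-Cas9. dTAG47 is a small molecule that links proteins with this module to a ubiquitin ligase, which marks them for degradation. DMSO served as vehicle. RNA-seq covered parental cells in DMSO, parental cells in 500 nM dTAG47, DTMYC cells in DMSO and DTMYC cells in 500 nM dTAG47, each for 24 h with 3 libraries. ATAC-seq (3 libraries per treatment, 24 h), PRO-seq (2 per treatment, 4 h) and MYC ChIP-seq (2 in DMSO and 3 in dTAG47, 4 h) covered DTMYC cells alone, so these assays give no parental value. The labels do not say that replicates were separate cultures, so p-values measure the spread between these libraries. They also do not say whether the DTMYC line is 1 clone. Any effect of the tagged MYC on a member cannot be told apart from that of infection, editing, outgrowth of a clone or passage.

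A gene can be silent in a line and expressed in its sister line. Whether DTMYC cells kept the parental DNA at every member, with no loss of copies, was not tested. Steady RNA shows the product, PRO-seq counts RNA polymerases engaged in transcription, and ATAC-seq maps DNA that a transposase can reach, so the 3 assays read different steps. Promoters rich in the dinucleotide CpG are open in many tissues, whereas CpG-poor promoters tend to be open where their gene is used. Genes that stay silent in a dividing line are commonly held by DNA methylation or by Polycomb complexes, neither of which was measured here.

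Both lines carried RNA of the rhabdoid marker list. Of its 8 genes, which include MYC, KRT19 and IGF2 were under 1 CPM in both lines, and VIM (681 CPM in parental and 659 CPM in DTMYC cells), KRT8 (4101 and 4449), KRT18 (1114 and 1441), SALL4 (285 and 218) and LIN28B (91.7 and 103) were abundant in both. Haematopoietic markers summed to at most 0.839 CPM in any library. The fibroblast and mesenchymal list, most of it TAGLN, FBLN1 and PDGFRB, summed to 604 to 767 CPM in parental libraries and 364 to 471 CPM in DTMYC libraries, with FAP and LUM at 0 in parental libraries. Within that list PDGFRA (4.36 CPM in parental and 17.95 CPM in DTMYC cells) and THY1 (14.5 and 18.4) went the other way. The kidney epithelial list summed to 33.2 to 50.96 CPM in parental and 26.3 to 31.1 CPM in DTMYC libraries. Most of this was PAX2 (37.7 CPM in parental and 26.2 CPM in DTMYC cells). CDH1 (4.25 and 0.345) and EPCAM (1.65 and 0.244) were also lower in DTMYC cells, whereas AQP1 (0.501 and 0.910) and PAX8 (0.0245 and 0.613) were higher. The part of either list in the member values was not tested. MYC itself was at 233 CPM in parental and 1400 CPM in DTMYC cells, where the counts do not separate the endogenous gene from the construct. Library totals ran from 27854207 to 54633745 counts. The library parental DMSO 3 stood apart: it was the highest of the 6 parental libraries for 43 members and the lowest for 16, and values that rest on it are given with and without it.

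The members' start sites differed widely in sequence and in accessibility, and the 250 bases before 4 of them show CpG-rich and CpG-poor examples. Among those of the 12 most abundant members with a promoter in the RefSeq table (build GRCh38.p14), they had the highest (RHOBTB1 and RPRM) and the lowest (PSG3 and NAV2) ratio of observed to expected CpG. Less abundant members went further in both directions. Each was placed in GRCh37 by exact match. Bases are in lower case, 5′ to 3′, and every CG dinucleotide is in capitals.
RPRM, chr2:154335277-154335526, minus strand, start site open in all 6 ATAC libraries: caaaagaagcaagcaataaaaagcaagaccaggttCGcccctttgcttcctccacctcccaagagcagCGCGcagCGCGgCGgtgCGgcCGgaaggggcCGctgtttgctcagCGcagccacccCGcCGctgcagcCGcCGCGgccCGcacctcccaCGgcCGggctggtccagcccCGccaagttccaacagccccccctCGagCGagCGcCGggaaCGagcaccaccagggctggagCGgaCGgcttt
RHOBTB1, chr10:62703944-62704193, minus strand, internal start site: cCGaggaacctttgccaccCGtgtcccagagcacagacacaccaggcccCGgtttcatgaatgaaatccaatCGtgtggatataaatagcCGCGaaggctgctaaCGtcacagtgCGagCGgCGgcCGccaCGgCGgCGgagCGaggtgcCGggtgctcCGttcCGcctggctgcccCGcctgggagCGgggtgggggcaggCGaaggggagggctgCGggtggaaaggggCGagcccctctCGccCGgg
PSG3, chr19:43244634-43244883, minus strand, start site under no ATAC peak: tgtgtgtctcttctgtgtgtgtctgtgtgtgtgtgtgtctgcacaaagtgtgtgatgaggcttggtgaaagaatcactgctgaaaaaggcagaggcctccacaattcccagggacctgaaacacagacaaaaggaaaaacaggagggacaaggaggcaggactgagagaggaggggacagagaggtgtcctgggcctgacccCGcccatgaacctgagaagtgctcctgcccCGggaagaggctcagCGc
NAV2, chr11:20043852-20044101, plus strand, internal start site: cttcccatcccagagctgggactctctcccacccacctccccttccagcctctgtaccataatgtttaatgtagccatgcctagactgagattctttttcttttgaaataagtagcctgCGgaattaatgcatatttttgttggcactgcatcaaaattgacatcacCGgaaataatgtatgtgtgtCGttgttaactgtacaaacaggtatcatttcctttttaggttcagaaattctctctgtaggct
RPRM had 26 CG dinucleotides in these 250 bases and RHOBTB1 had 25, whereas PSG3 and NAV2 had 3 each. The RPRM stretch overlapped an ATAC peak in all 6 libraries, and the other stretches overlapped none. The RefSeq starts of RHOBTB1 and NAV2 lie 57255 and 671831 bases from the 5′ end of the gene, so the 2 genes also have other starts, described below.

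The line difference chose the members and is given as a description. Between parental and DTMYC cells in DMSO, 37.3% of the 13401 genes tested with edgeR were lower in DTMYC cells and 36% were higher, 73.3% in all, and in dTAG47 38.9% were lower and 37.4% higher. All 82 members were lower in both, as the rule requires, and nothing is read from that count. Their parental means ran from 5.01 to 188 CPM with a median of 13.01, and 13 members were at 50 CPM or more. In the 6 DTMYC libraries together the median member had 8 counts and the highest, ABLIM1, had 33. No count fell on 6 members, 16 had 1 to 3 counts, and 22 had counts in every DTMYC library. Taken over all members, the RNA summed to between 1902 and 2333 CPM in parental libraries and to between 4.34 and 5.60 CPM in DTMYC libraries. The lowest value of any member in a parental library was 3.72 CPM and the highest in a DTMYC library was 0.323 CPM.

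**Figure D1:**
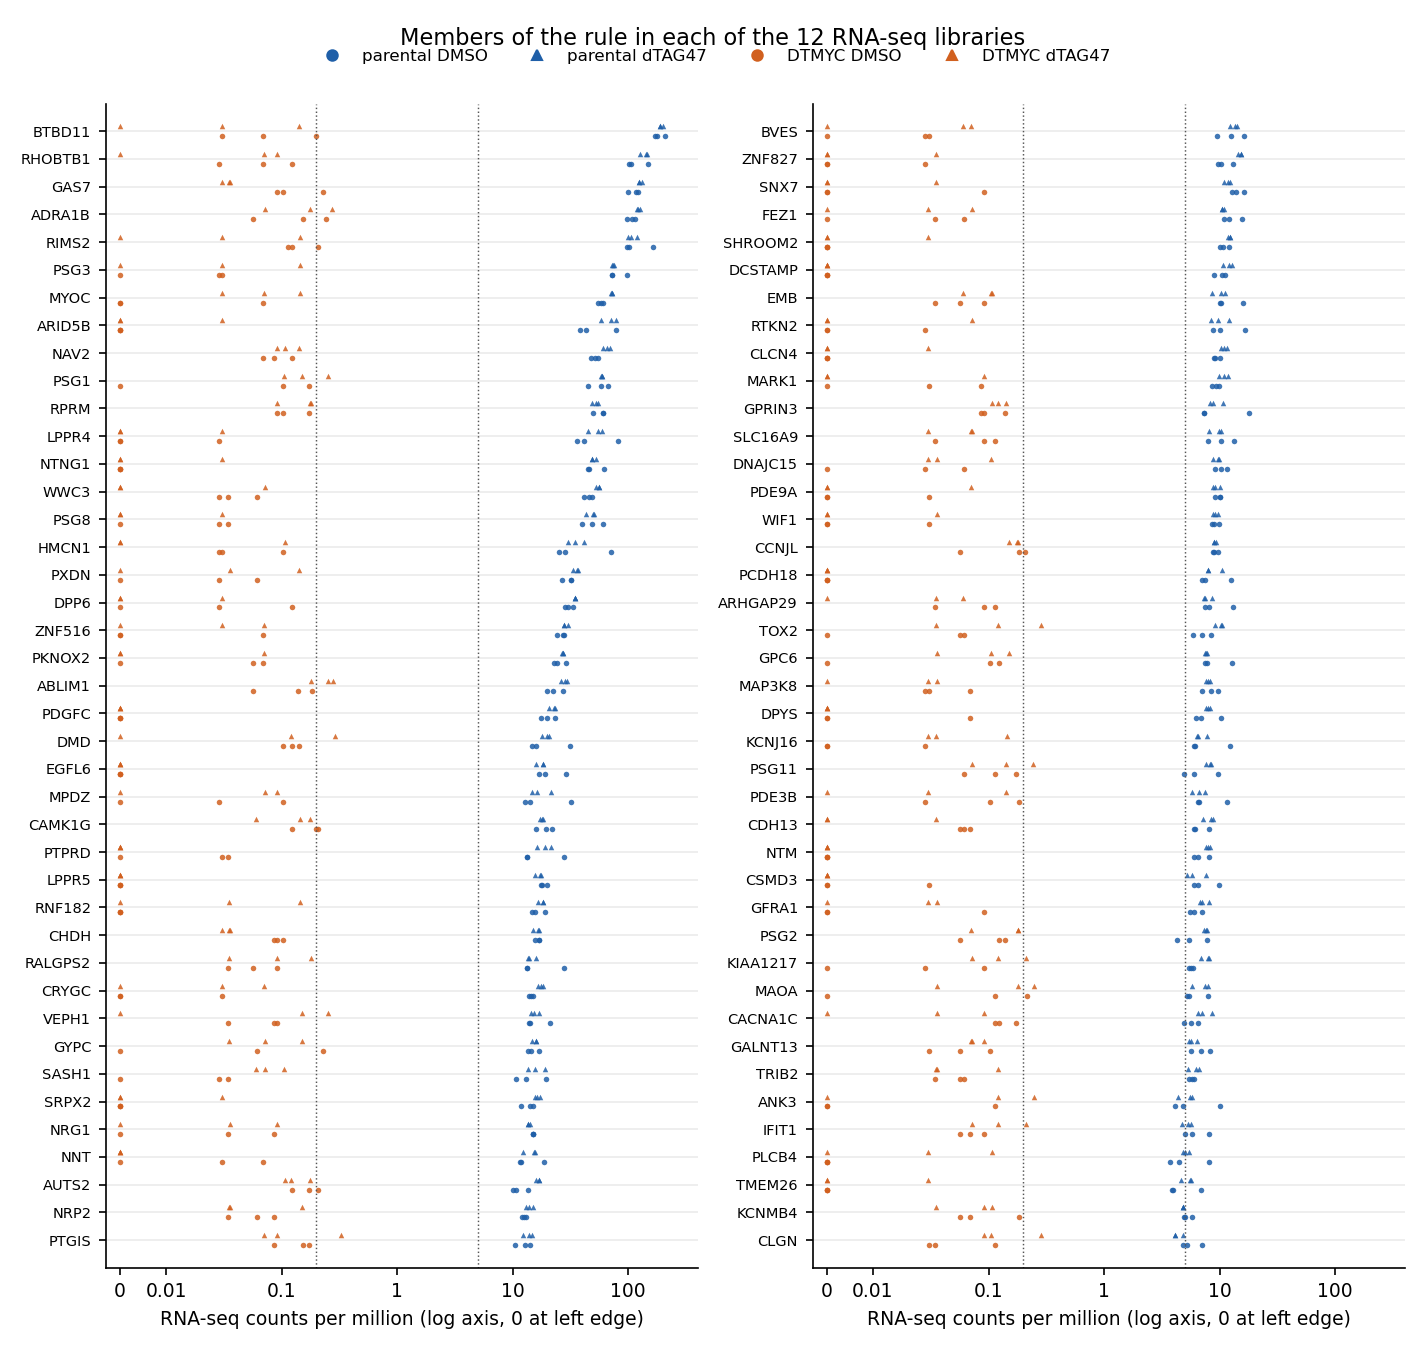
Every member in each of the 12 RNA-seq libraries, in CPM on a log axis with 0 at the left edge. Points are libraries, colours are lines, shapes are treatments, and dotted lines mark the thresholds of 0.2 and 5 CPM. All parental points lie at or above 3.72 CPM and all DTMYC points at or below 0.323 CPM.

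BTBD11, which encodes a protein with ankyrin repeats and a BTB domain, was the most abundant member. Its parental libraries had a lowest, median and highest value of 171, 188 and 208.5 CPM, and its DTMYC libraries 0, 0.0498 and 0.199 CPM. The lines did not overlap, and the ratio of CPM was 2347 with a 95% counting interval of 1423 to 4194. RHOBTB1, an atypical GTPase with BTB domains, stood at 102, 134 and 148 CPM in parental cells and at 0, 0.0696 and 0.122 CPM in DTMYC cells. GAS7, a growth-arrest protein that binds actin and membranes, stood at 99.96, 122 and 130 CPM against 0.0302, 0.0638 and 0.228 CPM. In all 3 genes the highest DTMYC library held only a trace of the lowest parental library. Just inside the parental threshold were CLGN (5.01 CPM), KCNMB4 (5.02 CPM) and TMEM26 (5.07 CPM), and just outside it ATOH8 (4.57 CPM), HTR6 (4.48 CPM) and LEMD1 (4.25 CPM). Just inside the DTMYC threshold were ABLIM1 (0.182 CPM), ADRA1B (0.162 CPM) and CCNJL (0.159 CPM), and among those just outside it PTX3 (0.202 CPM) and PLA2G3 (0.208 CPM).

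By role, sorted after the members were known, 8 members were ligands, receptors or secreted modulators. ADRA1B, the alpha-1B adrenergic receptor, had the highest level of these, with 96.7, 117 and 127 CPM in parental libraries and 0.0569, 0.164 and 0.271 CPM in DTMYC libraries. PDGFC, a platelet-derived growth factor, read 17.5, 21.8 and 23.4 CPM in parental cells and no count in any DTMYC library. Against a floor of 3 counts over the DTMYC group, PDGFC was at least 1307-fold lower. NRG1, a ligand of ErbB receptors, stood at 13.6, 14.4 and 15.1 CPM against 0, 0.0352 and 0.0905 CPM. The other receptors and modulators were NRP2, a co-receptor for semaphorins and VEGF (mean 13.2 CPM in parental cells), WIF1, a secreted inhibitor of Wnt ligands (9.17 CPM), GFRA1, a co-receptor for GDNF (6.74 CPM), and the membrane proteins LPPR4 and LPPR5 (52.9 and 17.6 CPM). Their DTMYC means ran from 0 to 0.0671 CPM. The list of growth factors and their receptors, chosen by symbol, had 92 entries at 5 CPM or more in parental cells and 3 of them were members. Most growth factor genes of the line were therefore not silent in DTMYC cells.

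Adhesion, matrix and membrane glycoproteins were the largest role group, with 17 members. MYOC, the secreted protein myocilin, stood at 54.3, 66.0 and 73.0 CPM in parental and 0, 0.0495 and 0.144 CPM in DTMYC libraries. NTNG1, a netrin-like protein anchored in the membrane, stood at 44.5, 48.8 and 61.97 CPM in parental libraries and had 1 count in DTMYC cells. HMCN1, the matrix protein hemicentin-1, read 28.1, 25.04 and 70.2 CPM in parental DMSO libraries 1 to 3 and 30.2, 34.5 and 41.7 CPM in the parental dTAG47 libraries. Parental DMSO 3 thus held by far the highest value, and every DTMYC library of HMCN1 was at or below 0.108 CPM. Of 5 cadherin or protocadherin genes that reached 5 CPM in parental cells, 2 were members: CDH13, an atypical cadherin without a membrane-spanning part (7.44 CPM), and PCDH18 (8.89 CPM), with no count in DTMYC cells. PXDN, a matrix peroxidase, GPC6, a heparan sulphate proteoglycan, EGFL6 and SRPX2 were matrix or secreted members with means from 8.50 to 32.6 CPM. EGFL6, NTM, PCDH18 and DCSTAMP had no DTMYC count and were at least 1198-fold, 458-fold, 545-fold and 691-fold lower.

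Genes of excitable and signalling cells formed the next groups. RIMS2, a scaffold of the presynaptic release site, stood at 96.8, 103 and 162 CPM in parental and 0, 0.118 and 0.207 CPM in DTMYC libraries. Of 51 ion channel genes at 5 CPM or more in parental cells, 4 were members: CLCN4, a chloride and proton exchanger (10.2 CPM), KCNJ16, an inward rectifier (7.53 CPM), CACNA1C, an L-type calcium channel (6.51 CPM), and KCNMB4, a subunit of BK channels (5.02 CPM). DPP6, an accessory subunit of potassium channels, had 32.6 CPM. The 12 members in the group of kinases, phosphodiesterases and small GTPase signalling included CAMK1G, a calmodulin-dependent kinase (18.4 CPM), MARK1, a microtubule-affinity kinase (10.1 CPM), MAP3K8 (8.15 CPM), and the phosphodiesterases PDE9A (9.51 CPM) and PDE3B (7.46 CPM). Another 12 were cytoskeletal or scaffold proteins, among them NAV2 (58.1 CPM), DMD, which encodes dystrophin (20.04 CPM), and ANK3, an ankyrin (5.75 CPM).

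Transcription and chromatin proteins numbered 6. ARID5B, which binds AT-rich DNA, read 37.8, 43.1 and 78.6 CPM in parental DMSO libraries 1 to 3 and 58.3, 70.7 and 78.4 CPM in parental dTAG47 libraries. A single count of ARID5B fell in 1 of the 6 DTMYC libraries, a ratio of 11180 with a counting interval of 2006 to 441500. PKNOX2, a homeodomain protein, had 26.2 CPM in parental cells. The zinc finger list had 307 genes at 5 CPM or more in parental cells, of which only ZNF516 and ZNF827 were members, and none of 54 developmental transcription factors outside the HOX clusters was one. The cell cycle group included RPRM, a mediator of arrest in G2 (54.2 CPM), and the metabolic group included MAOA, a monoamine oxidase (6.62 CPM), PTGIS, prostacyclin synthase (13.01 CPM), and NNT, a mitochondrial enzyme that makes NADPH (14.2 CPM). No member was among the 7 keratin and claudin genes, 22 cytokine and chemokine genes, 11 imprinted genes, 1 cancer-testis gene and 15 immunoglobulin-type adhesion genes that reached 5 CPM in parental cells. These lists are short for a background share of 0.875%, and the last was drawn up by symbol and lacks NTM and EMB, which are members of that type. Of 23 interferon and antigen presentation genes at 5 CPM or more in parental cells, 1 was a member, IFIT1 (5.74 CPM). Axon guidance genes gave 2 members of 35 at that level (NTNG1 and NRP2), solute carriers 1 of 170 (SLC16A9) and proteases and their inhibitors 1 of 38 (DPP6, which has lost protease activity). The list of G-protein coupled receptors, drawn up by symbol, gave 2 of 34, of which ADRA1B is a receptor and GPRIN3 is not.

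Some members lay next to each other. Of 82 members, 21 (25.6%) had another member as the adjacent entry in the table, and of the other entries expressed in parental cells 57 (0.614%) had a member as the adjacent entry. The difference was not tested. Among the 21 are 5 pregnancy-specific glycoprotein genes and the overlapping pair DPYS and DCSTAMP, whose single counts are uncertain, as described below. With members up to 1 Mb apart joined, 26 members formed 8 groups. Chromosome 10 held 11 members of 393 parental-expressed entries (2.80%) and chromosome X 7 of 194 (3.61%), and chromosomes 14 and 22 held none.

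The largest group lay at chr10:61410523-64028466 (GRCh37) and had 6 members: SLC16A9, ANK3, RHOBTB1, TMEM26, ARID5B and RTKN2. SLC16A9, a monocarboxylate carrier, had a mean of 9.96 CPM in parental cells and 0.0687 in DTMYC cells. RTKN2 had 10.9 and 0.0167 CPM, and TMEM26 5.07 and 0.00503 CPM. The silence was not continuous over the whole group. CCDC6, between SLC16A9 and ANK3, was at 207 CPM in parental and 291 CPM in DTMYC cells, and CDK1, between ANK3 and RHOBTB1, at 89.7 and 104 CPM. From RHOBTB1 to RTKN2 no entry was expressed in DTMYC cells. The only other entry there, C10orf107, was low in parental cells too (0.404 CPM) and had no DTMYC count. ATAC peaks at start sites also differed among these 6 members, with RTKN2 and SLC16A9 open in all 6 libraries, RHOBTB1 in 5, ARID5B in 2, and ANK3 and TMEM26 in 1.

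**Figure D2:**
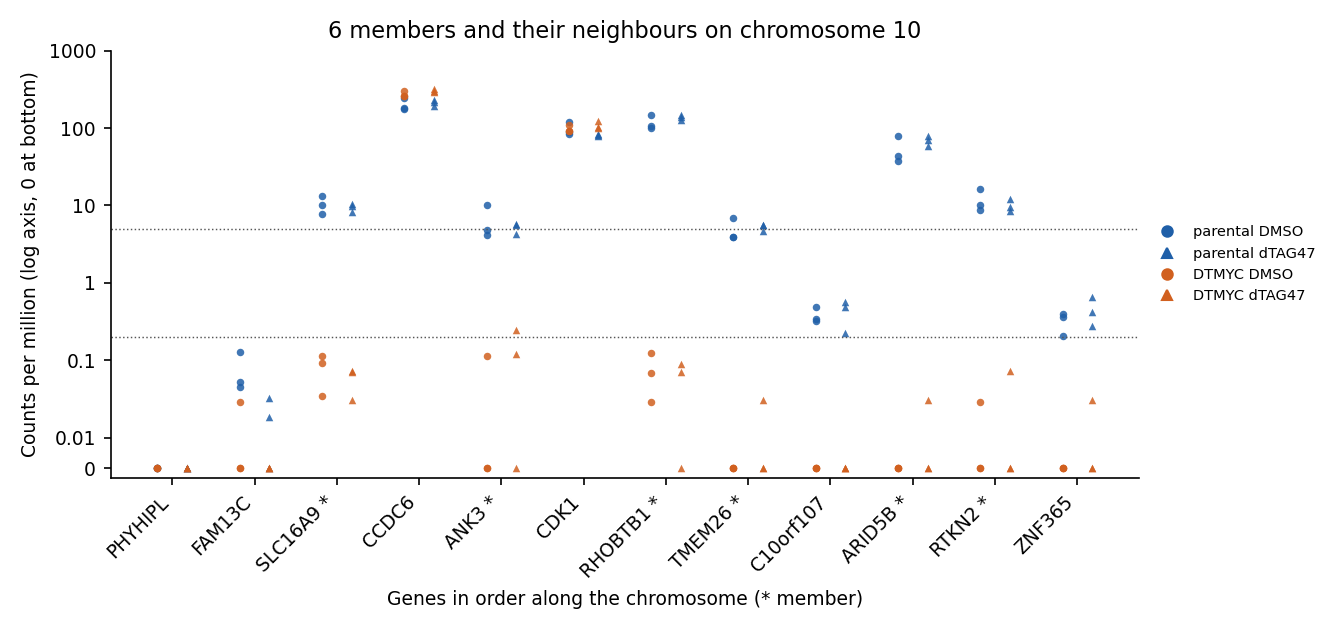
Genes of the chromosome 10 group with the entries between them, 2 entries to the left and 1 to the right, in order along the chromosome, with CPM per library on a log axis and 0 at the bottom. Stars mark members. Members lie at 3.86 CPM or more in parental libraries and at 0.246 CPM or less in DTMYC libraries, while CCDC6 and CDK1, between them, lie at 79 CPM or more in all 12 libraries.

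Pregnancy-specific glycoproteins, secreted proteins made mainly by the placenta, gave the second group of adjacent members. PSG3, PSG8, PSG1, PSG11 and PSG2 lay at chr19:43225790-43587197. In parental libraries PSG3 had a lowest, median and highest value of 71.7, 73.4 and 97.6 CPM, and in DTMYC libraries 0, 0.0293 and 0.144 CPM. PSG1 stood at 44.8, 58.6 and 66.1 CPM against 0, 0.128 and 0.251 CPM. PSG6, between PSG1 and PSG11, was below the parental threshold and also low in DTMYC cells (2.91 and 0.0332 CPM). At the other end of the family the genes were lower in DTMYC cells but far from silent: PSG5 at 29.3 and 2.93 CPM, PSG4 at 79.4 and 35.3 CPM and PSG9 at 306 and 103 CPM. The genes of this family are near-identical, so counts of single members are uncertain, and reads from PSG4 or PSG9 could be counted under another symbol.

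**Figure D3:**
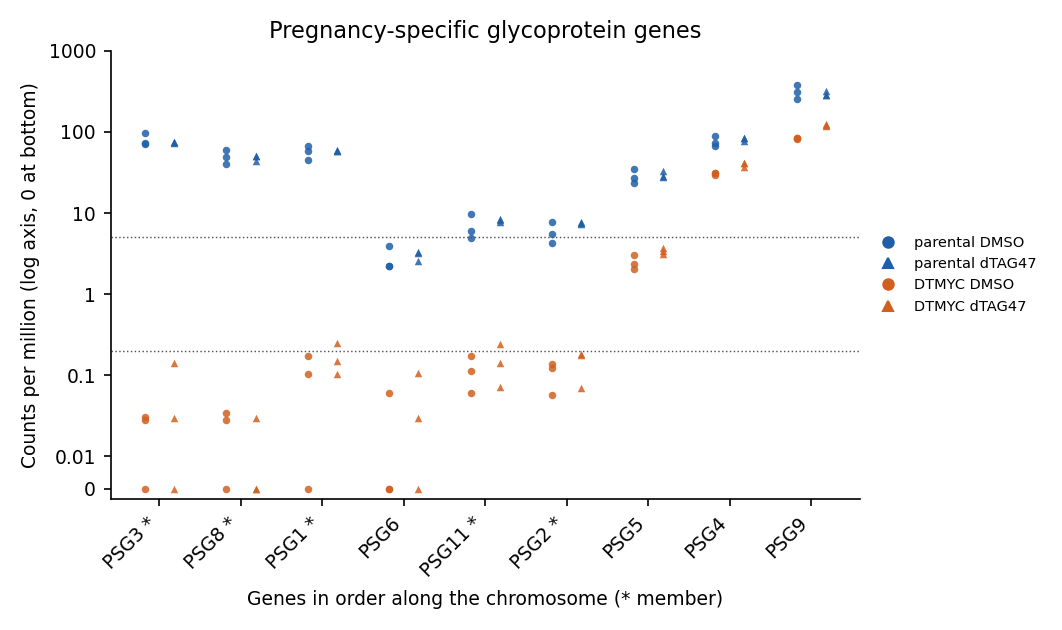
Pregnancy-specific glycoprotein genes in order along chromosome 19, with CPM per library on a log axis and 0 at the bottom. Stars mark members. DTMYC libraries lie at or below 0.251 CPM for PSG3, PSG8, PSG1, PSG6, PSG11 and PSG2, and PSG9 has a DTMYC mean of 103 CPM.

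The remaining groups had 2 or 3 members each. SNX7, LPPR5 and LPPR4 lay side by side on chromosome 1, and the next gene, PALMD, which was over the DTMYC threshold and no member, had 61.4 CPM in parental and 0.422 CPM in DTMYC cells. WWC3 and CLCN4 adjoined each other on the X chromosome near SHROOM2, and PKNOX2 adjoined FEZ1 on chromosome 11. RIMS2, DPYS and DCSTAMP were neighbours on chromosome 8. DCSTAMP lies within the span of DPYS, and since strand use in counting is not given in the sources used here, their reads cannot be told apart. RPRM and GALNT13 adjoined on chromosome 2, and ADRA1B and CCNJL lay within 1 Mb on chromosome 5. Over all 82 members, those in the groups included, 44 had an adjacent gene that was expressed at 5 CPM or more in both lines. Such genes filled 52 of the 164 places next to members. Of 16743 entries on the numbered chromosomes and X under the same exclusions, 8902 were expressed in both lines. The share of all genes with such a neighbour was not computed, and nothing is read from the 44. The median ratio of DTMYC to parental CPM was 1.19 over the 50 neighbours expressed in both lines and 1.04 over all 8902 genes expressed in both lines.

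Members were long genes. Their median span was 115.5 kb, against 21.8 kb for the 3883 genes under 0.2 CPM in both lines and 33.3 kb for genes expressed in both lines. Over all entries the median span was 29.1 kb. Of the 82, 15 (18.3%) spanned over 500 kb, against 2.86% of genes silent in both lines, 0.876% of the genes expressed in both lines and 1.62% of all entries. PTPRD, a receptor phosphatase (2298 kb), and DMD (2242 kb) were the longest. RPRM (1.47 kb) and CRYGC, a lens crystallin (1.69 kb), were the shortest. The gene model used for counting differed less in length than the span did. Its median was 6.49 kb for members, 2.96 kb for genes silent in both lines, 5.07 kb for genes expressed in both and 4.27 kb for all entries. CPM does not correct for model length, and a longer transcript collects more counts at an equal number of molecules. The part of length in membership was not tested.

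PRO-seq showed that the members were not being transcribed at a level near that of expressed genes in DTMYC cells. The table matched 81 members, all but DCSTAMP. The median gene body density, summed over the 4 libraries, was 0.192 counts per kb for members, 0.131 for genes silent in both lines and 166 for genes expressed in both lines. No member reached the 5th percentile of the genes expressed in both lines, 32.2 counts per kb. The density counts a gene's reads per length and is not scaled for depth, which ran from 18209879 to 23256313 gene body counts per library.

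**Figure D4:**
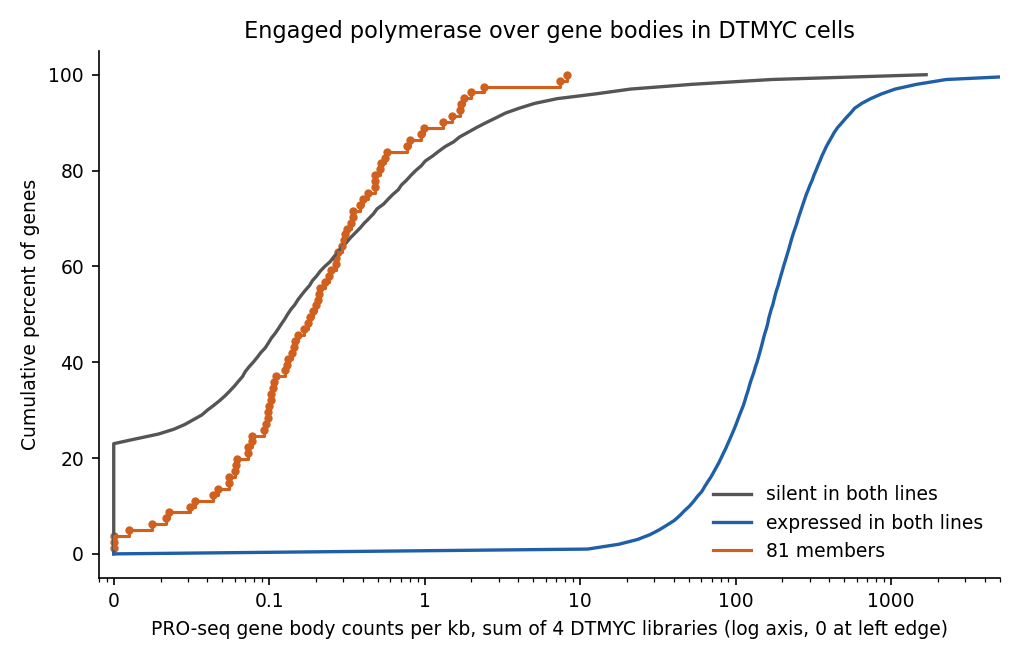
Cumulative percent of genes by PRO-seq gene body density in DTMYC cells, the sum of 4 libraries in counts per kb on a log axis with 0 at the left edge. Orange points are the 81 matched members. They end at 8.17 counts per kb, whereas the curve of genes expressed in both lines has its median at 166.

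CAMK1G had the highest density of the members, 8.17 counts per kb. Its gene body held 74 and 50 counts in DMSO and 61 and 54 in dTAG47, and its promoter-proximal region 5 and 4 counts in DMSO and 2 and 5 in dTAG47. MYOC followed with 7.46 counts per kb, from 31 and 27 counts in DMSO and 25 and 38 in dTAG47. Both lay above the 95th percentile of genes silent in both lines (7.11), and their treatments overlapped. Then came PSG11 (2.41) and PSG2 (2.00). At the low end, PCDH18, RPRM and CRYGC had no gene body count in any library. The gene bodies of RPRM and CRYGC span only 471 and 694 bases, so a count of 0 there carries little weight.

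Promoter-proximal reads, which mark polymerase just after its start, were scarce too. In DMSO 30 of 81 members (37.04%, exact 95% interval 26.6 to 48.5) had at least 1 count in either library, against 25.03% of genes silent in both lines and 98.5% of genes expressed in both lines. At 3 or more counts the share of members was 8.64%, against 10.5% and 97.6%. At 10 or more counts no member was left, against 4.57% of genes silent in both lines and 95.1% of genes expressed in both. Over all entries the shares at a minimum of 1, 3 and 10 counts were 77.4%, 70.2% and 63.0%. The members' share was higher than in silent genes at a minimum of 1 count, and not at 3 or 10. No read at all fell in the promoter-proximal region of 41 members in the 4 libraries.

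ATAC-seq peaks were more common at the start sites of members than at those of silent genes. On average over 6 libraries, 59.6% ± 7.61 (SD, n = 6) of members had a peak within 1000 bases of an annotated start site, against 28.6% ± 3.72 of genes silent in both lines and 96.3% ± 1.70 of genes expressed in both lines. Over all entries the share was 71.9% ± 2.79. In single libraries the share of members ran from 48.8% to 68.3%. In all 6 libraries 33 members (40.2%) had a peak, against 63.6% of all entries, and 19 (23.2%) had none in any, against 20.4%. Members had a median of 7 annotated start sites and genes silent in both lines 3, which gives members more chances to meet a peak. At the 5′ end of the annotated gene alone the share was 41.5% ± 5.56, against 23.1% ± 2.94, 87.7% ± 2.14 and, over all entries, 63.6% ± 2.645. That end can lie far from the 5′ end of the entry in the RNA-seq table. For LPPR5 they lay 222897 bases apart, and the entry's end, open in all 6 libraries, is not counted in this share. Peaks at members were also weaker than at expressed genes: the median score, which is 10 times −log10 q, averaged 100.7 ± 27.6 over the libraries at members, 92.1 ± 13.7 at genes silent in both lines and 223 ± 69.0 at genes expressed in both. Of members with a parental mean of at least 20 CPM, 8 of 23 were open in all 6 libraries, and of the less abundant ones 25 of 59.

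**Figure D5:**
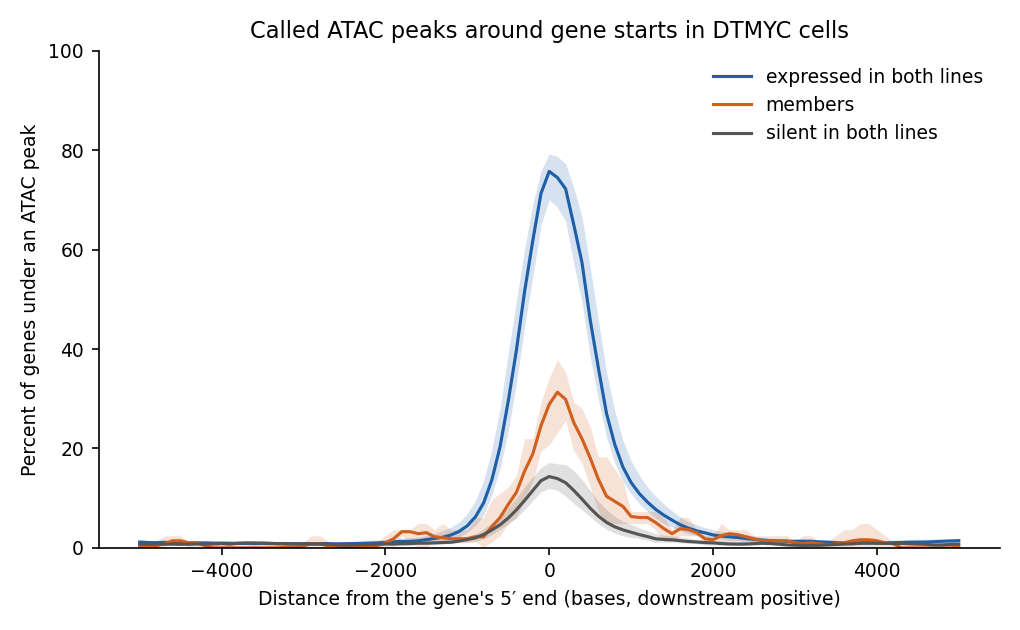
Percent of genes under a called ATAC peak by distance from the annotated gene's 5′ end in bases. Lines are means over 6 DTMYC libraries and bands run from the lowest to the highest library. At the 5′ end 28.9% of members, 14.3% of genes silent in both lines and 75.7% of genes expressed in both lines lie under a peak.

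RPRM had high peak scores beside a trace of RNA. Its only annotated start site, the one whose CpG-rich sequence is printed above, had peak scores of 749, 355 and 230 in DMSO and 648, 402 and 536 in dTAG47, while its DTMYC RNA was at or below 0.1795 CPM in every library and its promoter-proximal region held 2 PRO-seq counts in all. MAOA had scores of 279, 440 and 88 in DMSO and 278, 251 and 472 in dTAG47. NAV2 had a peak in all 6 libraries, with scores from 218 to 424, but this peak lay 362112 bases inside the gene and none lay at its 5′ end or at the CpG-poor start printed above. FEZ1, a kinesin adaptor, had the highest scores, 434 to 1357, at a start site within 2 kb of the start of STT3A. STT3A had 241 CPM in parental and 262 CPM in DTMYC cells. That site lies 96250 bases from the 5′ end of the FEZ1 entry in the RNA-seq table. At the entry's own end 3 libraries had a peak, with a mean score of 27.3. CHDH, PDE3B and VEPH1 also had a peak within 2 kb of another gene's start. With all such shared sites left out, an alternative chosen after seeing the data, the share of members was 57.1% ± 7.73. The share was 23.1% ± 3.57 for genes silent in both lines, 76.6% ± 1.93 for genes expressed in both and 57.2% ± 2.87 over all entries. A gene left with no site of its own counted as closed, which lowers the share where shared starts are common. The closeness of members to all entries is therefore not read as a result.

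Several abundant members had no peak at any start site, among them WWC3, MYOC and PSG3. Of the 5 pregnancy-specific glycoprotein members 4 had none, and PSG8 had 1 in 2 libraries, at a start 6783 bases inside the gene. In the group of kinases, phosphodiesterases and small GTPase signalling, 8 of 12 members (66.7%) were open in all 6 libraries. This was the highest share of the role groups, which were assigned after the members were seen. It counts PDE3B and VEPH1, whose site open in all 6 lay within 2 kb of the start of another gene, PSMA1 and PTX3. At its own 5′ end VEPH1 was open in 3 libraries. The group is therefore not read as more open than the others. The share was 40.2% over all members and 63.6% over all entries. Away from start sites, members had 4.06 ± 1.53 ATAC peaks per Mb of gene span, against 5.25 ± 1.92 for genes silent in both lines and 10.8 ± 3.81 for genes expressed in both.

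In 1000 bases around the 5′ end of the RNA-seq entry the members' CpG content was near that of all entries. Only 57 members (69.5%) had a promoter in the RefSeq table, too few for a check over the set, which is therefore void. As a description of the matched promoters, the median ratio of observed to expected CpG was 0.712 for members and 0.783 for all entries. A ratio of at least 0.6 was found in 54.4% of the matched members and 68.8% of the matched entries, and 76.7% of all entries were matched. In 1000 bases of GRCh37 centred on the entry's 5′ end, available for all 82, the median ratio of observed to expected CpG was 0.702 for members, 0.389 for genes silent in both lines, 0.777 for genes expressed in both and 0.712 for all 16367 entries with a window. A ratio of at least 0.6 was found in 50 members (61.0%), against 35.3%, 82.3% and 64.7%, so the members' share was near that of all entries. Of these 50, 25 had an ATAC peak in all 6 libraries and 6 in none, and of the 32 with a lower ratio 8 had a peak in all 6 and 13 in none. WWC3 (ratio 1.05, no ATAC peak) and ARHGAP29 (0.0836, a peak in all 6 libraries at another start site) went against this. Of the genes whose sequence is printed above, RPRM had a ratio of 0.887 in its 1000 bases and PSG3 0.118.

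MYC peaks were near-absent from the members. A start site within 1000 bases of a MYC peak in either DMSO library was found in 1 of 82 members (1.22%, exact 95% interval 0.0309 to 6.61). The share was 2.50% of genes silent in both lines, 34.2% of genes expressed in both and 20.6% of all entries. The member was FEZ1, with a score of 43 in DMSO replicate 1 and no peak in DMSO replicate 3, at the site next to the start of STT3A. That site lies 96250 bases from the 5′ end of the FEZ1 entry in the RNA-seq table.

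The members' response to dTAG47 in DTMYC cells could not be tested. The rule holds them to a median of 8 counts over 6 libraries, and none passed the filter on low counts when the DTMYC libraries were taken alone. In the fit over all 12 libraries, which they enter through their parental counts, edgeR called 0 of 82, against 8.71% of all 13401 genes, and DESeq2 called none. An unadjusted p under 0.05 was found for 3 members, against 23.7% of all genes. Without parental DMSO 3 the same fit called 29.2% of all genes and 1 member, GAS7. Nothing is read from these counts. As a description, the members' RNA summed to 4.71, 4.34 and 4.35 CPM in DMSO and to 4.81, 5.07 and 5.60 CPM in dTAG47. The CPM sums of the 2 treatments did not overlap, but the raw counts behind them did. These were 154, 126 and 153 in DMSO and 137, 168 and 156 in dTAG47, and no difference is read from the sums. Both treatments lay far below the parental sums, of which the lowest was 1902 CPM. GAS7 read 0.0918, 0.103 and 0.228 CPM in DMSO and 0.0351, 0.0302 and 0.0359 CPM in dTAG47, from 17 counts in all.

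In PRO-seq gene bodies 36 members had enough counts to be tested, 0 were called by edgeR against 0% of all 13397 genes, and 1 of the 36 had an unadjusted p under 0.05, as did 1298 of all genes. DESeq2 gave no adjusted p for any member. The 1 was MARK1, with 2 and 4 counts in DMSO and 12 and 10 in dTAG47 (log2 fold change 1.94, SE 0.66, edgeR adjusted p = 0.47). Both dTAG47 libraries were higher, at a density far below that of expressed genes. With a block on replicate number, which the labels do not tie to a shared source, edgeR called MARK1 and 32.5% of all genes. For ATAC-seq the share of members with a peak was 58.1% ± 8.65 (n = 3) in DMSO and 61.0% ± 7.997 (n = 3) in dTAG47, an exact two-sided permutation p of 0.7, where 0.1 is the smallest that 3 against 3 can give.

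In parental cells, which have no tagged protein, 0 of 82 members passed the edgeR test for dTAG47, against 0.127% of all 13401 genes. An unadjusted p under 0.05 was found for 7 members, against 15.5% of all genes, and DESeq2 called none. This depended on parental DMSO 3. Without it 18 members were called (22%), 16 higher and 2 lower in dTAG47, against 20.1% of all 13521 genes, so the members' share was near the background. ARID5B was the clearest of these, with a log2 fold change of 0.73 (SE 0.10, edgeR adjusted p = 0.000295) without that library and 0.36 (SE 0.24, edgeR adjusted p = 0.486) with it. In its values given above, parental DMSO 3 is as high as the dTAG47 libraries and the other DMSO libraries are lower. RHOBTB1, NAV2, ZNF827, PSG2 and PSG11 were also higher without that library, by 0.35 to 0.59 on the log2 scale, and RPRM and FEZ1 were lower. Without DMSO 2 a single member, AUTS2, was called (0.65, SE 0.10, edgeR adjusted p = 0.014).

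Genes for factors that write, read or erase silencing marks on DNA and histones were taken as a list, since DNA methylation and the Polycomb and HUSH complexes are the common means of keeping a gene silent. Of 31 tested between the lines in DMSO, 15 (48.4%) were higher in DTMYC cells and 11 (35.5%) lower by edgeR, against 36% and 37.3% of all genes. HELLS, a helicase that DNA methylation of repeats requires, had 184 ± 5.49 CPM in DTMYC DMSO and 53.1 ± 22.9 CPM in parental DMSO libraries (SD, n = 3), a log2 fold change of 1.77 (SE 0.22, edgeR adjusted p = 1.28e-05). DNMT3B, a de novo DNA methyltransferase, had 179 ± 3.24 and 69.9 ± 3.62 CPM (1.33, SE 0.07, edgeR adjusted p = 4.42e-09). DNMT3A, the other de novo enzyme, went the opposite way, with 16.6 ± 2.27 and 32.0 ± 2.89 CPM (fell by 0.98, SE 0.11, edgeR adjusted p = 5.57e-06), as did the Polycomb subunit CBX7 (6.68 ± 0.412 and 15.2 ± 0.494 CPM) and, by less, the maintenance methyltransferase DNMT1 (fell by 0.46, SE 0.07, edgeR adjusted p = 8.28e-05). Higher in DTMYC cells were also SMCHD1 (log2 fold change 1.40), PPHLN1 (1.38), and TET1 and TET2 (1.07 each), enzymes that oxidise methylated cytosine and so help to erase DNA methylation. Between the lines in dTAG47, which leaves parental DMSO 3 out of the contrast, 14 of the 15 and all 11 were called in the same direction. Any link between these genes and the members was not tested.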

How the data were processed

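The authors deposited raw RNA-seq counts per protein-coding gene and PRO-seq counts for promoter-proximal regions and gene bodies, with a gene body density that is the count over the length in bases, per the file headers. Per the submitters' processing notes the build was hg19, the same as GRCh37, and the tools were cutadapt, Bowtie2, STAR, featureCounts, MACS2, DESeq2 and DiffBind, with versions and settings not given in the sources used here. The peak lists that the authors deposited, 1 per sample, give a score per peak of 10 times −log10 q, and the read depth behind them is unknown. The MYC lists are labelled as MYC antibody but named for HA, the epitope of the tag.

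CPM were computed by scaling counts to the column total. Counts were tested with edgeR 4.0.16 (R 4.3.3, filterByExpr, TMM, quasi-likelihood F-test, two-sided, Benjamini-Hochberg over all genes, threshold 0.05), with all 12 RNA-seq libraries in 1 fit and DESeq2 1.42.0 as an alternative. The fit was tested on simulated data. Gene body density is the summed count per kb of gene body. Start sites came from GENCODE v44 lifted to GRCh37. The 5′ end of a gene is that of the GENCODE gene for ATAC peaks and that of the RNA-seq entry for CpG content. Ratio intervals and shares are exact 95% intervals and cover counting error only.

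The members, lists and rules were chosen with earlier results of these data known, and the roles were assigned after the members were seen. Genes named are the 12 most abundant members, up to 4 per list, the extremes of each assay, members in runs, and the neighbours of each threshold, of which 1 is not reported here; others, such as those given for their role or for a change without 1 library, were chosen after their values were seen. Replicate numbers did not pair the RNA-seq libraries: same-numbered deviations correlated at 0.324, 0.0483 and 0.367 in parental and 0.0846, -0.011 and -0.0476 in DTMYC cells. IgG ChIP-seq was not analysed here.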

Additional observations from a re-analysis of the deposited data

How the results depend on the processing

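The number of members was 131 with a parental minimum of 2 CPM and 52 with 10 CPM. It was 82 with TMM library sizes, 64 and 108 with a DTMYC maximum of 0.1 and 0.5 CPM, 81 with medians, and 78 to 84 with a library left out, the lowest without parental DMSO 3. For dTAG47 in parental cells 0 to 18 members were called with a library left out (0 with all), and in DTMYC cells 0 to 1, the 1 without parental DMSO 3, a choice added after seeing the data. The DTMYC counts show nothing about stability, since fitted on the 6 DTMYC libraries alone no member passed the filter on low counts. A replicate block called 0 members in both RNA-seq contrasts and 1 in PRO-seq gene bodies (MARK1, log2 fold change 1.95, SE 0.65, edgeR adjusted p = 0.011), where 4360 of all genes (32.5%) were called against 0 without it; with 2 pairs the same-numbered libraries correlate at 0.639, and they share only a number. Over all genes in parental cells 17 were called, 315 by DESeq2, 5 with the replicate block and 0 with the 6 parental libraries alone. In DTMYC cells 1167 were called and 4593 with the 6 DTMYC libraries alone, and DESeq2 called 66 in PRO-seq. Promoter-proximal reads were found in 8.64% of members at 3 counts and 0% at 10 counts (37.04% at 1 count). An ATAC peak was found in 41.5% of members at the annotated gene's 5′ end alone and in 45.7% at a score of 50 or more (59.6% as reported, and 57.8% to 61.7% with a library left out). No member had a MYC peak in both DMSO libraries (0%, against 6.76% of all entries), where a count of 0 among 82 allows up to 3.66%. The cause of these shifts was not tested beyond what each choice removes. The median gene body density was 0.179 to 0.199 with a library left out.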
